A study of Mus musculus with 26 samples.

Results

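Potassium channel genes were described in single mouse retinal amacrine cells. All genes on the array whose symbol starts with Kcn were taken, leaving out Kcnip1 to Kcnip4 and Kcnd1 to Kcnd3. This gave 77 genes of 18193, of which 74 encode a protein and 3 (Kcnq1ot1, Kcnmb4os1 and Kcnmb4os2) are transcripts that encode no channel. Each of 26 cells was hybridised on its own Affymetrix mouse expression array after its cDNA had been amplified by 35 cycles of PCR from an oligo dT primer, so only the 3′ ends of transcripts were read. Values are linear signal intensities that the authors made with the MAS5 software. Each array has a mean of 500 once 2% of the values are trimmed at either end. Detection means a signal of 1000 or more.

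The cells came from retinas electroporated with 1 of 2 constructs, pNdrg4 or pSynapsin, and were picked by hand as GFP-positive cells after papain dissociation. The labels name the constructs and do not describe them, and cells in which the construct was silent could not be picked. There were 10 cells of postnatal day 5 (P5) with pNdrg4 for which no culture is stated. A further 5 P5 cells with pNdrg4 and 4 P5 cells with pSynapsin came from retinas cultured for 5 days. At P8, 2 cells with pNdrg4 and 2 with pSynapsin came from retinas cultured for 8 days. Younger cells were 2 of P4 with pNdrg4 and 1 of embryonic day 19 (E19) with pSynapsin, all cultured for 4 days. Strain, sex, animal and retina are not given in the sources used here. Each group therefore counted as 1 sample, no p-value was made from cells, and standard deviations (SD) over cells describe spread alone.

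Pax6, a transcription factor of amacrine cells, was detected in 26 of 26 cells. Gad1, an enzyme that makes GABA, and Slc6a9, the plasma membrane glycine transporter, mark the GABAergic and the glycinergic amacrine classes. Gad1 without Slc6a9 was detected in 10 cells (Gad1-only) and Slc6a9 without Gad1 in 13 (Slc6a9-only), with both genes in 1 cell, P5 A6, and neither in 2 cells, P5 A2 and P5 D6. Gad2, the other enzyme that makes GABA, was detected in 7 of 10 Gad1-only and 7 of 13 Slc6a9-only cells. The class names thus give the detection of Gad1 and Slc6a9 alone, and Slc6a9-only does not mean free of GABA enzymes. The classes were spread unevenly: 6 of the 10 Gad1-only cells had no stated culture, and all 4 P8 cells were Slc6a9-only. Rod photoreceptor genes were also seen in these arrays, with 0 to 8 of 10 measured rod markers detected per cell, while Prph2 was not detected. The rod markers' summed signal ran from 359 to 48227 in Gad1-only and from 2391 to 99479 in Slc6a9-only cells. Of 9 Muller glia markers 0 to 6 were detected per cell. Glul was detected in 18 cells, Dkk3 in 16, Car2 in 14, Vim in 11, Rlbp1 in 5, Slc1a3 and Sox9 in 1 each, and Apoe and Aqp4 in none. Of 5 measured bipolar cell markers 3 were detected, Prkca in 6 cells, Otx2 in 3 and Cabp5 in 1. Of 5 measured ganglion cell markers Sncg was detected in 2 cells and Pou4f1 in 1. Of 3 endothelial markers Pecam1 was detected in 1 cell, and of 3 horizontal cell markers none reached 1000 in any cell. P5 C6 held the most potassium channel genes and P5 E2 the most rod markers among P5 cells. Both cells are named with the main results that rest on them.

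Potassium channels set the resting potential of neurons and end their action potentials. Voltage-gated (Kv) channels assemble from 4 pore subunits of a subfamily, often with cytoplasmic beta subunits. Calcium-activated channels couple calcium entry to repolarisation, inward rectifiers hold the membrane near rest and include the G-protein-gated channels that act downstream of transmitter receptors, and tandem-pore (Kcnk) channels carry leak current. In the retina, Kv3 and calcium-activated channels are known for shaping the output of amacrine cells.

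The promoters of Kcna5 and Kcnc1 are shown because these genes led, respectively, the comparison of the amacrine classes and that of the ages. Sequences are from RefSeq on build GRCm38.p6 and run from 250 bases before to 50 bases after the annotated transcript start, on the strand of the gene. Kcna5 lies at chr6:126535506-126535805 on the minus strand and Kcnc1 at chr7:46396218-46396517 on the plus strand. Capitals mark GC boxes (GGGCGG on either strand) and AP-2 motifs (GCCNNNGGC on either strand), the latter searched since Tfap2a and Tfap2b encode AP-2 factors and were detected in 16 and 20 cells.
Kcna5: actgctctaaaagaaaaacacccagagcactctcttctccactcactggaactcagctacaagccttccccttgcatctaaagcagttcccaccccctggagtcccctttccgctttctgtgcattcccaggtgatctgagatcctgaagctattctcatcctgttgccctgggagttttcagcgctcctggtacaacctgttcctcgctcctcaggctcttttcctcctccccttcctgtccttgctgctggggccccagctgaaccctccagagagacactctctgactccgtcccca
Kcnc1: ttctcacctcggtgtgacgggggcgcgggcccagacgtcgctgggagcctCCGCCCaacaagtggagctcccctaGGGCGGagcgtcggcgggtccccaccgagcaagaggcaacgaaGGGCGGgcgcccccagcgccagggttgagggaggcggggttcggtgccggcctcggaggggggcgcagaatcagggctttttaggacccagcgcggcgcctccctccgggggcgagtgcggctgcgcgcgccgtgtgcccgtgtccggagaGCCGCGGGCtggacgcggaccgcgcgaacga
The Kcnc1 window is 74.7% G and C with 41 CpG dinucleotides, 3 GC boxes and 1 AP-2 motif that overlaps no GC box. The Kcna5 window is 55.0% G and C with 4 CpG dinucleotides and no match to either motif, so it carries no capitals. Across all 32851 promoter windows of the same length, 35.7% held a GC box and 16.6% an AP-2 motif. Of the 77 genes, 58 had a window in the table, and 78 windows belonged to them. Median G and C content was 57.8% over 34 windows of 21 detected genes, 57.7% over 44 windows of 37 genes that were not detected, and 52.7% over all windows. The medians of detected and not detected channel genes lay close together, above that of all windows. These matches describe letters in the window and no binding was measured.

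Potassium channel genes were detected in few cells each. Of the 77, 29 (37.7%) reached 1000 in at least 1 cell, against 55.9% of all genes on the array. In at least 4 cells the share was 15.6% (12 genes) against 36.7%, and in at least 6 cells 5.19% (4 genes) against 28.9%. In at least 13 of 26 cells 0 potassium channel genes were detected, against 11.9% of all genes. Of the 29 genes, 8 were detected in 1 cell, 4 in 2, 5 in 3, 5 in 4, 3 in 5, 1 in 6, 2 in 9 and 1 in 11 cells. Of the A-type channel genes left out here, Kcnd3, a pore subunit, was detected in 15 cells. Kcnip1, which encodes a beta subunit of that channel, was detected in 12 cells, 9 of them Gad1-only, and Kcnip3 in 11 cells, 8 of them Slc6a9-only.

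**Figure D1:**
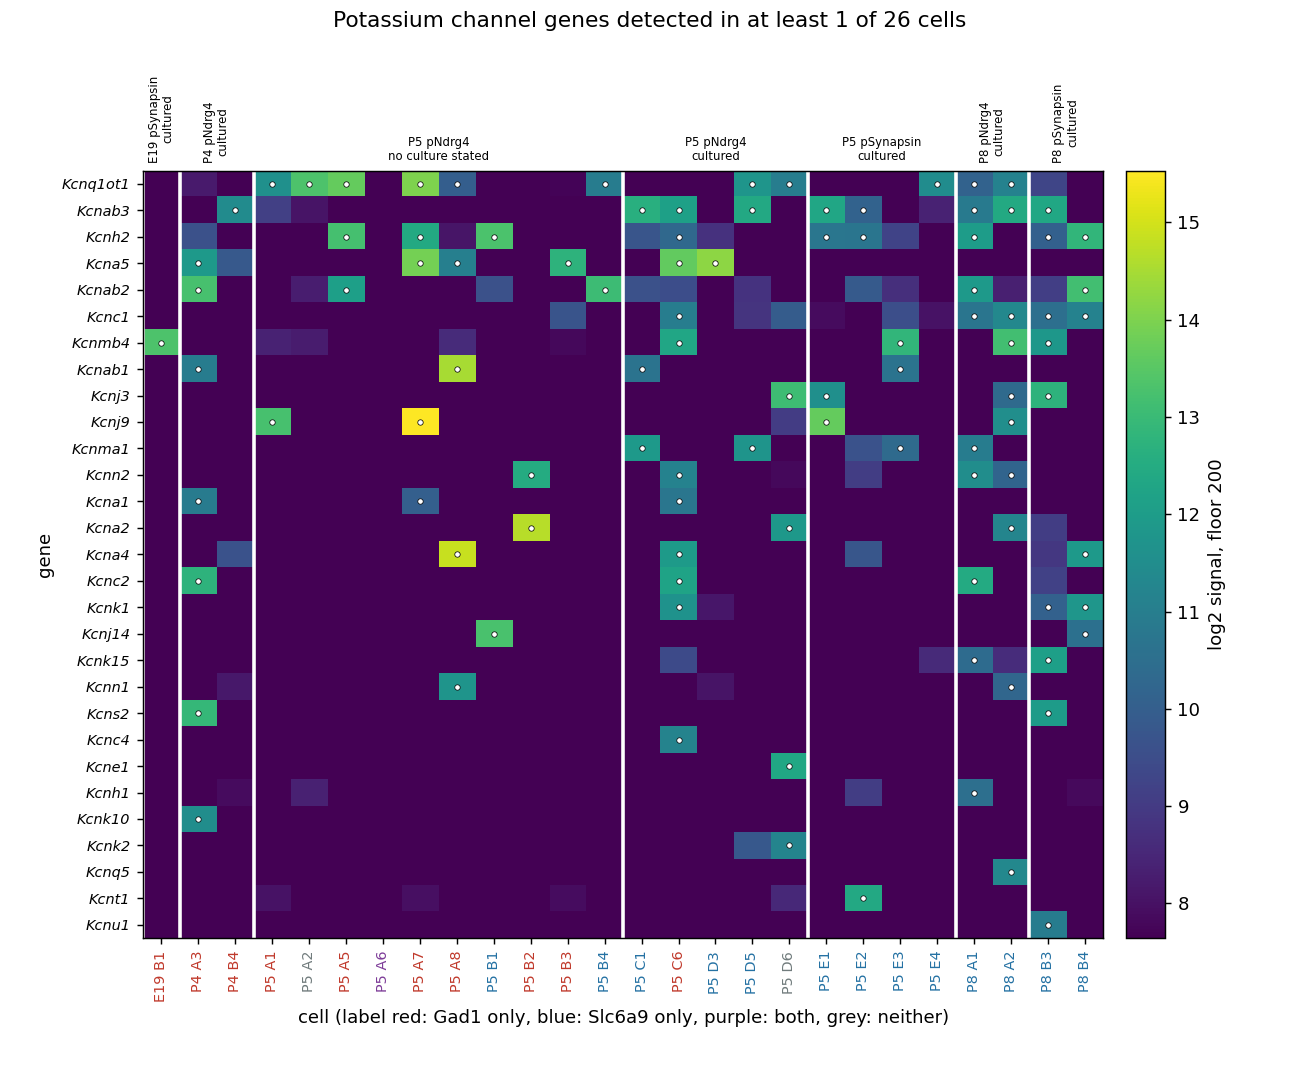
Log2 signal (colour, with signals below 200 raised to 200) of the 29 potassium channel genes detected in at least 1 of 26 cells, with genes in rows and cells in columns ordered by group; a white dot marks a signal of at least 1000. Most fields lie at the floor, and columns P5 C6, P8 A1 and P8 A2 hold the most dots (11, 10 and 10).

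Few of these genes were detected in any single cell. The count per cell ran from 0 in P5 A6 to 11 in P5 C6, with a median of 3 and a mean of 3.88 ± 3.18 (SD, n = 26 cells). By group the median was 2 (0 to 5) in P5 cells without stated culture, 3 (1 to 11) in cultured P5 pNdrg4 cells and 3 (1 to 4) in cultured P5 pSynapsin cells. The P4 cells held 1 and 7 and the E19 cell 1. Both P8 pNdrg4 cells held 10, and the P8 pSynapsin cells 9 and 6. The count moved with the number of all genes detected in the same cell, which ran from 1909 to 4180 (Spearman's rho 0.57 and Pearson's r 0.61 over 26 cells, a description, since both counts come from the same array and threshold). P5 cells without stated culture had a median of 2361.5 genes detected against 3256 in cultured P5 pNdrg4 cells. Gad1-only cells held a median of 2.5 (1 to 11), a mean share of 4.94% of the family beside 14.1% of all genes. For Slc6a9-only cells these values were 3 (1 to 10), 5.69% and 18.9%, so the classes overlapped in the count.

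**Figure D2:**
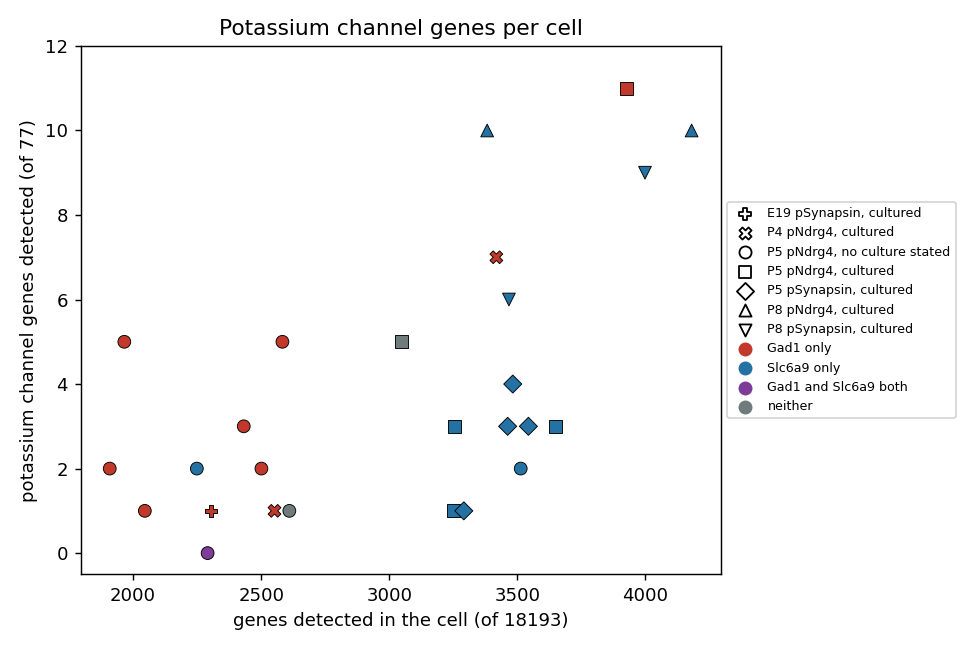
Number of potassium channel genes detected (vertical axis, of 77) against the number of all genes detected (horizontal axis, of 18193) in each of 26 cells; shape gives the group and colour the Gad1 and Slc6a9 class. The 4 P8 cells (triangles) hold 6 to 10 potassium channel genes, and P5 C6 (red square) holds 11.

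Among Kv1 genes, which encode low-threshold and delayed rectifier channels, 4 of 7 were detected, together in 10 cells. Kcna5 (Entrez gene 16493), a delayed rectifier subunit, was detected in 6 cells (23.1%, Clopper-Pearson 95% interval 8.97 to 43.6%, which covers counting error only). Its signals were 18830 in P5 D3, 15034 in P5 A7, 12633 in P5 C6, 6859 in P5 B3, 3894 in P4 A3 and 2097 in P5 A8. P4 B4 had 928 and the other 19 cells were below 200, so Kcna5 was either far above the threshold or near the array's low end in nearly every cell. Kcna1, the subunit of axonal channels, was detected in 3 cells, all Gad1-only, at 1944 in P4 A3, 1699 in P5 C6 and 1054 in P5 A7. Its usual partner Kcna2 was detected in 3 other cells, at 26368 in P5 B2, 3671 in P5 D6 and 2395 in P8 A2. Kcna4, which encodes a rapidly inactivating channel, reached 29870 in P5 A8, 3922 in P5 C6 and 3787 in P8 B4. Summed over the subfamily, 11 of 15 detections fell in Gad1-only and 3 in Slc6a9-only cells, and 6 of 10 Gad1-only and 3 of 13 Slc6a9-only cells had any. Over all 77 genes 38 of 101 detections were in Gad1-only and 57 in Slc6a9-only cells. Those of P5 C6 (Kcna5, Kcna1 and Kcna4) are among the 11. Other Kv1 probe sets were detected in the Slc6a9-only cells P5 E1 and P5 E4 (Kcna2) and the Gad1-only cells P5 A1 (Kcna4) and P5 B3 (Kcna1). Kcna3, Kcna6 and Kcna7 were not detected, with Kcna6 reaching 809.

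All 3 measured Kv3 genes, which encode the high-threshold channels of fast-spiking neurons, were detected, in 6 cells together. Kcnc1 (Entrez gene 16502) was detected in 5 cells (19.2%, interval 6.55 to 39.4%): 2590 in P8 A2, 2279 in P8 B4, 2015 in P5 C6, 1668 in P8 A1 and 1478 in P8 B3. Between 200 and 1000 lay P5 D6 (978), P5 B3 (834), P5 E3 (751), P5 D5 (458), P5 E4 (263) and P5 E1 (235), and 15 cells were below 200. On this probe set all P8 cells were thus above every other cell except P5 C6. Kcnc2 was detected in P4 A3 (6835), P8 A1 (5722) and P5 C6 (4792), and Kcnc4, an inactivating member, in P5 C6 alone (2297).

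Of the 6 Kv10 to Kv12 genes, Kcnh2 and Kcnh1 were detected. Kcnh2 encodes the ERG channel, which inactivates quickly and slows repetitive firing. It was detected in 9 cells (34.6%, interval 17.2 to 55.7%), at 10162 in P5 B1, 9372 in P5 A5, 7260 in P8 B4, 5557 in P5 A7 and 4147 in P8 A1. Lower signals were 1724 in P5 E1, 1658 in P5 E2, 1280 in P5 C6 and 1064 in P8 B3, while 5 cells lay between 271 and 849 and 12 below 200. Detection of Kcnh2 was spread over 3 Gad1-only and 6 Slc6a9-only cells and over every group but the E19 and P4 cells. Kcnh1 was detected in P8 A1 alone (1477). Of 3 measured Kv7 genes, which carry the slow M-current, Kcnq5 was detected in P8 A2 (2560), and Kcnq3 reached at most 122. Among 9 genes of silent subunits, which form no channel alone and modify others, Kcns2 was detected in P4 A3 (7628) and P8 B3 (4031). Kcnv2, the silent subunit of photoreceptors, was not detected (highest signal 389).

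Auxiliary subunits gave more detections (24) than any pore subfamily, with 5 of 11 genes detected and at least 1 of them in 17 cells. Kcnab1, Kcnab2 and Kcnab3 encode cytoplasmic beta subunits of Kv1 channels. Kcnab3 (Entrez gene 16499) was detected in 9 cells (34.6%, interval 17.2 to 55.7%), at 6258 in P5 C1, 5593 in P8 A2, 5416 in P5 D5, 5169 in P8 B3, 5082 in P5 E1 and 4503 in P5 C6. P4 B4 had 2807, P8 A1 1905 and P5 E2 1118, and all 9 cells came from cultured retinas. In the 10 P5 cells without stated culture its signal ran from 6.52 through a median of 35.5 to 564.

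Kcnab2 (Entrez gene 16498) was detected in 5 cells, at 9688 in P4 A3, 9136 in P8 B4, 8457 in P5 B4, 4348 in P5 A5 and 3780 in P8 A1. A further 9 cells lay between 308 and 951, so this gene had more intermediate signals than Kcna5. Kcnab1 was detected in 4 cells (15.4%, interval 4.36 to 34.9%), at 23038 in P5 A8, 1967 in P4 A3, 1622 in P5 E3 and 1603 in P5 C1, with the other 22 below 200. Kcnmb4, the neuronal beta subunit of the large-conductance calcium-activated (BK) channel, was detected in 5 cells. Its signals were 10242 in E19 B1, 9078 in P8 A2, 7256 in P5 E3, 5062 in P5 C6 and 3625 in P8 B3. It was the single potassium channel gene detected in the E19 cell. Kcne1, a single-span partner of the Kcnq1 channel, was detected in P5 D6 alone (5171).

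Calcium-activated channel genes were detected in 8 cells, with 3 of 5 genes. Kcnma1, the pore subunit of the BK channel, was detected in 4 cells, all Slc6a9-only: 3873 in P5 C1, 3414 in P5 D5, 1998 in P8 A1 and 1311 in P5 E3. P5 E2 had 800, and in Gad1-only cells the signal ran from 0.273 through a median of 3.83 to 29.1. Kcnn2, a small-conductance channel of the afterhyperpolarisation that follows spikes, was detected at 5799 in P5 B2, 2925 in P8 A1, 2268 in P5 C6 and 1156 in P8 A2. Kcnn1, of the same kind, was detected in P5 A8 (3408) and P8 A2 (1207).

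Inward rectifier genes were the largest subfamily, with 15 measured and 3 detected. Kcnj3 and Kcnj9 encode subunits of G-protein-gated channels. Kcnj3 was detected at 8599 in P5 D6, 6867 in P8 B3, 3050 in P5 E1 and 1313 in P8 A2, with the other 22 cells below 200 and no Gad1-only cell among the 4. Kcnj9 was detected at 47441 in P5 A7, 13116 in P5 E1, 9727 in P5 A1 and 2970 in P8 A2, in 2 cells of either class. No other Kcnj9 probe set was detected in these cells, and 1 was in P4 A3. Kcnj14, of the strongly rectifying kind, was detected in P5 B1 (9894) and P8 B4 (1503). Kcnj6, another G-protein-gated subunit, and Kcnj11, the pore of the ATP-sensitive channel, stayed under the threshold at 687 and 674. Kcnj10, the main potassium channel of Muller glia, was not detected either and reached at most 133.

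Of 12 tandem-pore genes 4 were detected, in 6 cells. Kcnk1 was detected in P8 B4 (3572), P5 C6 (3229) and P8 B3 (1084), and Kcnk15 in P8 B3 (4387) and P8 A1 (1351). The mechanosensitive channels Kcnk10 and Kcnk2 were each detected in 1 cell, P4 A3 (2928) and P5 D6 (2354). The sodium-activated channel gene Kcnt1 was detected in P5 E2 alone (5472), the P5 cell with the most rod markers, and Kcnu1, known from sperm, in P8 B3 (2004). Kcnk3, an acid-sensitive leak channel, reached 599 on the probe set used.

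Kcnq1ot1, an antisense transcript of the imprinted Kcnq1 locus that encodes no protein, was the member detected in the most cells (11, 42.3%, interval 23.4 to 63.1%). Its signals were 16409 in P5 A7, 13163 in P5 A5, 10399 in P5 A2, 3458 in P5 D5, 3137 in P5 A1 and 2851 in P5 E4. Lower signals were 2244 in P8 A2, 2044 in P5 D6, 1973 in P5 B4, 1121 in P8 A1 and 1018 in P5 A8. Of its 6 probe sets the others were detected in at most 3 cells, and the transcript overlaps Kcnq1. It was detected in 6 of the 10 P5 cells without stated culture and in 2 of the 5 cultured P5 pNdrg4 cells.

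A gene that was not detected was not shown to be absent. Of the 48 genes without a signal of 1000, 6 reached at least 500 and 24 stayed below 200 in every cell. Probe sets of 1 gene also differed: another Kcnc1 probe set was detected in 4 cells, P5 B1, P5 C1, P5 C6 and P8 B4, of which the last is the single P8 cell. For Kcnma1 other probe sets were detected in P5 D5, P5 E2 and P8 A1 and in P5 D3 and P8 B3. For Kcnj3 another was detected in 3 of its 4 cells, while for Kcnab1 the other was detected in no cell. The other probe set of Kcnab3 was detected in P5 E1 alone and that of Kcnab2 in P5 D5 alone. With the median over probe sets in each cell, Kcnj9, Kcnma1 and Kcnq1ot1 were detected in 0 cells, and Kcnj3, Kcnc1 and Kcnab1 in 2 each.

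Pairs of subunits that can assemble were counted cell by cell. Of 12 such pairs with both genes measured, 5 held a gene detected in no cell, and of the other 7 pairs 5 were detected together in 1 or 2 cells each. These counts are small and were given no chance value. Kcnj3 and Kcnj9 were both detected in P5 E1 and P8 A2, with 2 further cells for either gene alone. Kcnc1 and Kcnc2 were both detected in P5 C6 and P8 A1. Kcna1 was found with Kcnab1 and with Kcnab2 in 1 cell, P4 A3, and Kcnma1 with Kcnmb4 in 1 cell, P5 E3. Kcna1 and Kcna2, detected in 3 cells each, shared none. P4 A3 held 4 of the Kv1 and beta subunit genes, Kcna5, Kcna1, Kcnab2 and Kcnab1.

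Next, Gad1-only and Slc6a9-only cells were compared. Differences are of mean log2 signals, with signals below 200 raised to 200 (7.64 on the log2 scale), which shortens any difference against low cells, and a difference of at least 2 log2 units (4-fold) was taken as past the limit. Kcna5 alone was past it in the higher direction, 1 of 77 genes (1.30%) against 0.335% of all genes. Kcna5 was detected in 5 of 10 Gad1-only and 1 of 13 Slc6a9-only cells. The mean log2 signal was 10.36 ± 2.61 (SD, n = 10 cells) and 8.15 ± 1.82 (SD, n = 13 cells), a difference of 2.22. The signals overlapped, since P5 D3, an Slc6a9-only cell, had the highest of all. The difference was 2.45 within P5 cells without stated culture (3 of 6 and 0 of 2 cells). Within cultured P5 pNdrg4 cells it was 3.80, over 1 cell against 3. It rested on few cells: without P5 A7, P5 B3 or P5 C6 no gene was past the limit.

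In the lower direction 0 of 77 genes were past the limit, against 1.65% of all genes. At a limit of 1 unit Kcna5 was still the 1 gene higher (2.75% of all genes), and Kcnab3 (-1.36) and Kcnma1 (-1.26) were lower in Gad1-only cells, 2.60% of the family against 9.9% of all genes. Within P5 cells without stated culture the difference was 0.25 for Kcnab3 and 0 for Kcnma1, with neither gene detected. Within cultured P5 pNdrg4 cells, 1 Gad1-only cell against 3, it was 1.25 for Kcnab3 and -2.79 for Kcnma1. The lower Kcnab3 value was thus not seen within either group. Over the family, 31 genes (40.3%) were higher, 18 (23.4%) lower and 28 equal at the floor, against 34.0% and 39.2% of all genes. Genes at the floor set the median to 0 for the family and for all genes. Over genes detected in at least 2 cells it was 0.19 for 21 of the family and -0.33 for all, a description, since a gene passes this filter through the cells in which it is high. Of the 29 detected genes, 10 (34.5%) had no Gad1-only cell among their cells, against 22.3% of all detected genes. For Slc6a9-only cells 5 (17.2%) had none, against 9.38%. Both shares were above those of all genes, but the family's genes were detected in fewer cells each. Rod markers went with the classes too, with 4 of 10 past the limit and lower in Gad1-only cells, and their part in these values was not tested.

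**Figure D3:**
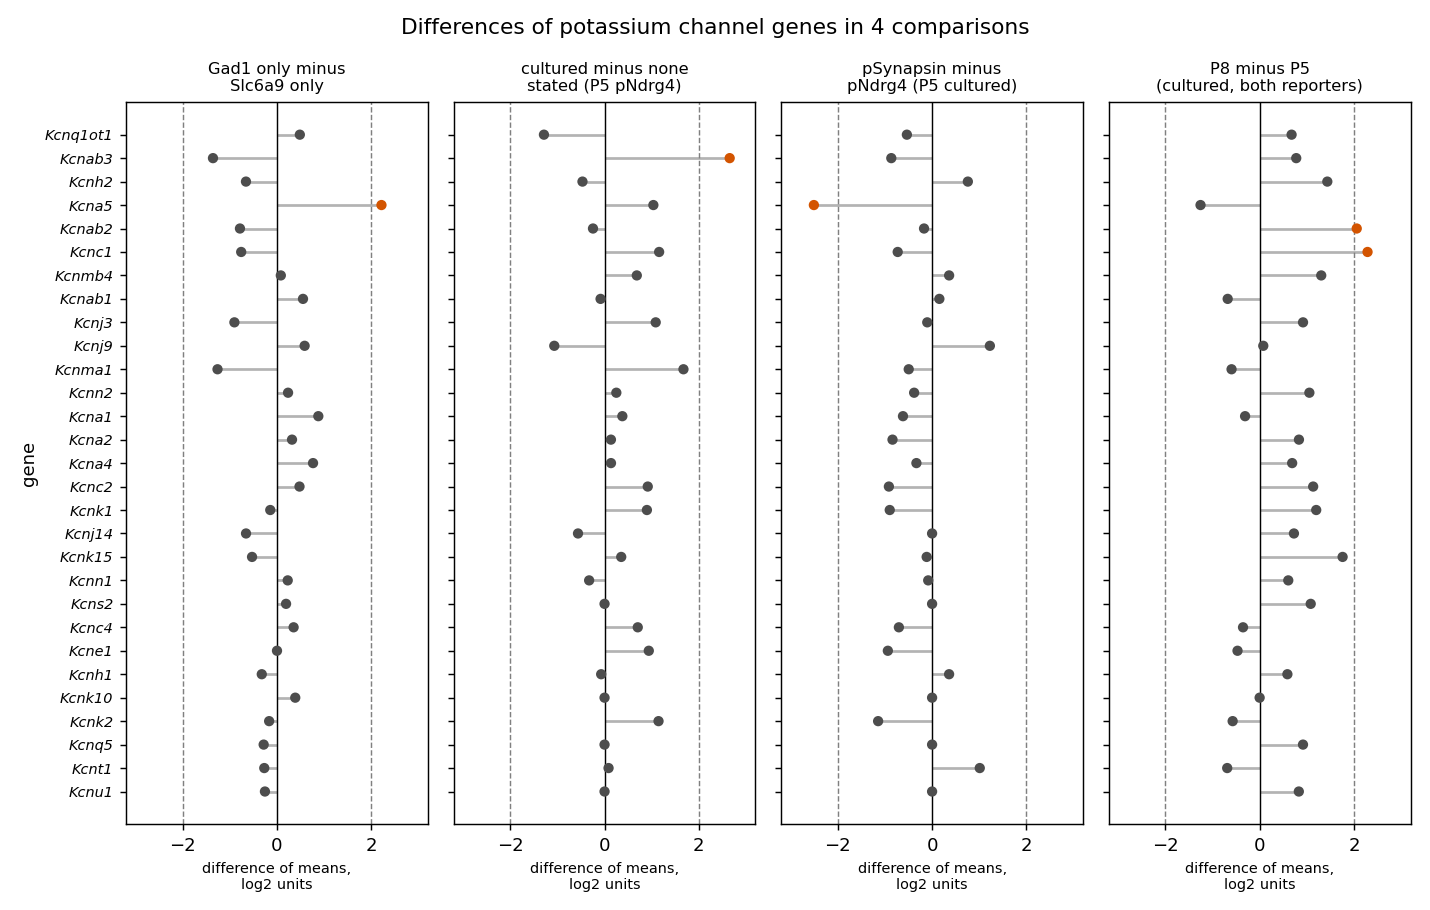
Difference of mean log2 signals (horizontal axis, log2 units) of the 29 detected genes in the comparisons of class, stated culture, reporter and age; dashed lines mark 2 log2 units and orange points lie past them. Kcna5 passes by class (2.22) and by reporter (-2.51), Kcnab3 by culture (2.65), and Kcnc1 (2.29) and Kcnab2 (2.06) by age.

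Cultured P5 pNdrg4 cells (5) were compared with the 10 of the same age and reporter for which no culture is stated. Kcnab3 was the single gene past the limit, higher in cultured cells, 1 of 77 (1.30%) against 3.47% of all genes. It was detected in 3 of 5 cultured cells, at 6258, 5416 and 4503, and in 0 of 10 others. Mean log2 signals were 10.49 ± 2.60 (SD, n = 5 cells) and 7.83 ± 0.48 (SD, n = 10 cells), a difference of 2.65. The groups overlapped, since the cultured cells P5 D3 and P5 D6 were below 200. The other Kcnab3 probe set was detected in P5 E1 alone (1042), a pSynapsin cell, and so in none of the cells compared here. With the median over probe sets in each cell the Kcnab3 difference was 2.20. In the lower direction 0 genes were past the limit, against 0.698% of all genes. Past 1 unit were Kcnma1 (1.67), Kcnc1 (1.16), Kcnk2 (1.14), Kcnj3 (1.09) and Kcna5 (1.04) besides Kcnab3, 7.79% of the family against 12.8% of all genes. Kcnq1ot1 (-1.29) and Kcnj9 (-1.07) were lower by over 1 unit, 2.60% against 4.27%. Kcnma1 was detected in 2 of 5 cultured cells and in 0 of the 10 others, whose signals ran from 1.51 through a median of 2.58 to 29.1. Of 10 rod markers Pdc (-2.76) and of 9 Muller glia markers Vim (-3.001) were past the limit and lower in cultured cells. The number of genes detected and the classes differed between these groups too, and the part of all these was not tested.

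The reporters were compared within cultured P5 cells, 4 with pSynapsin and 5 with pNdrg4. In the higher direction 0 potassium channel genes were past the limit, against 2.84% of all genes. In the lower direction Kcna5 was (1.30% of the family against 2.0%). All 4 pSynapsin cells were at the floor of 7.64, and pNdrg4 cells averaged 10.15 ± 3.44 (SD, n = 5 cells), a difference of -2.51. The pNdrg4 mean came from P5 D3 and P5 C6, with the other 3 cells below 200, and without either cell the difference was under the limit. At 1 unit, Kcnj9 (1.23) and Kcnt1 (1.01) were higher (2.60% against 10.3%), and Kcna5 and Kcnk2 (-1.14) lower (2.60% against 8.81%). Among the pSynapsin cells Kcnj9 was detected in P5 E1 alone and Kcnt1 in P5 E2 alone, the cell rich in rod markers. Taking medians over the cells, the Kcna5 difference was 0, and Kcnab3 was the 1 gene past the limit and lower. All 4 pSynapsin cells were Slc6a9-only, while the pNdrg4 cells were 3 Slc6a9-only, 1 Gad1-only and 1 with neither gene. In the same comparison 4 of 10 rod markers were past the limit and higher in pSynapsin cells, Sag (3.36), Rom1 (2.62), Pdc (2.44) and Nrl (2.34), as was the Muller glia marker Vim (2.19). The amacrine genes Tfap2b (-3.55), Tfap2a (-3.10) and Gad2 (-2.45) were lower. The part of these in the values was not tested. At P8 all 4 cells were below 200 for Kcna5. There, with 2 cells a reporter, Kcnk1 (3.30), Kcna4 (2.76) and Kcns2 (2.17) were higher in pSynapsin cells (3.90% of the family against 5.45% of all genes). Kcnn2 (-3.20) and Kcnq1ot1 (-2.17) were lower (2.60% against 4.91%). None of these 5 genes was past the limit at P5, and the difference between the ages was not tested.

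**Figure D4:**
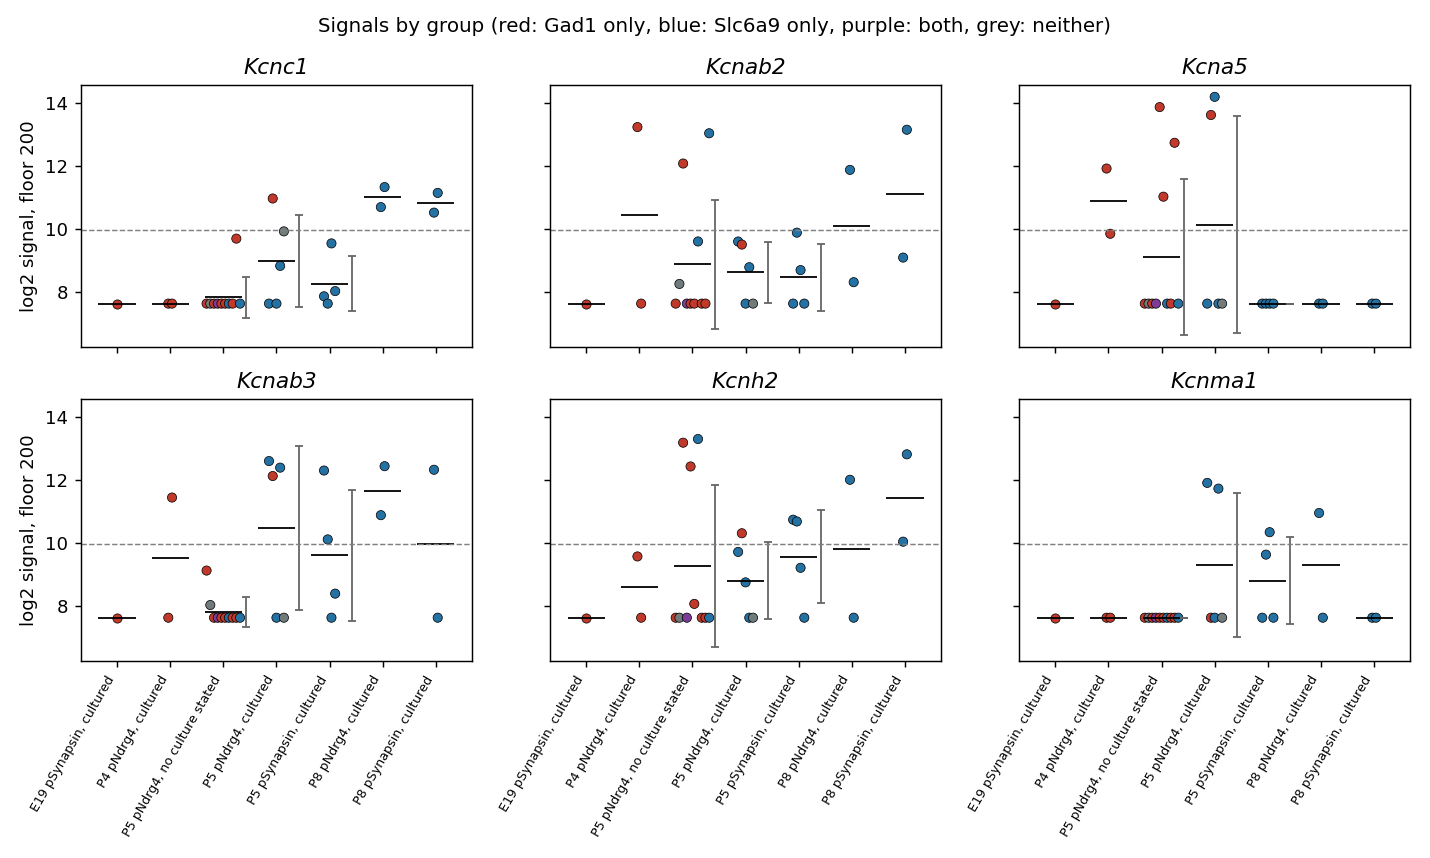
Log2 signal (vertical axis, floor 200) of 6 genes in every cell by group (horizontal axis); black bars are group means, grey whiskers 1 SD over cells in groups of at least 4, the dashed line is a signal of 1000 and colour gives the class. For Kcnc1 all 4 P8 cells lie above the line, with signals from 1478 to 2590, and for Kcna5 the pSynapsin and P8 cells lie at the floor.

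P8 cells held more potassium channel genes than most cultured P5 cells. The 4 P8 cells had 6 to 10, a mean of 8.75 ± 1.89 (SD, n = 4 cells), and the 9 cultured P5 cells had 1 to 11, a mean of 3.78 ± 2.99 (SD, n = 9 cells). These were 11.4% and 4.91% of the family, while the share of all genes detected was 20.6% and 18.9%. Without P5 C6 the P5 cells held 1 to 5 (mean 2.88 ± 1.36, SD, n = 8 cells). In the 7 cultured P5 cells that were Slc6a9-only, as all P8 cells were, the count was 1 to 4 (mean 2.57 ± 1.13, SD, n = 7 cells), and it did not overlap with P8. This was 3.34% of the family beside 18.8% of all genes. The number of all genes detected was 3251 to 3649 in these P5 cells and 3382 to 4180 at P8. The restriction to Slc6a9-only cells was chosen after the data had been seen. Age and days in culture move together here and cannot be told apart. Rod markers also differed, with 3 to 8 of 10 detected at P8 and 0 (P5 C6) to 7 (P5 E2) in cultured P5 cells. Their part in the count of potassium channel genes was not tested.

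The P8 cells did not hold the same set of genes. P8 A1 and P8 A2 shared Kcnq1ot1, Kcnab3, Kcnc1 and Kcnn2 among their 10 each. P8 B3 held 9, including Kcnab3, Kcnh2, Kcnmb4 and Kcnj3, and P8 B4 held Kcnh2, Kcnab2, Kcnc1, Kcna4, Kcnk1 and Kcnj14. On the probe set used, Kcnc1 was in all 4 of these cells, in 1 of 9 cultured P5 cells and in no other. Another Kcnc1 probe set was detected in P8 B4 alone of the P8 cells, and in P5 B1, P5 C1 and P5 C6. In P5 C6, the count of 11 included Kcna1, Kcna4 and Kcna5 of Kv1 and all 3 Kv3 genes.

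The age difference was taken within either reporter and averaged, and 2 genes were past the limit, both higher at P8: 2.60% of the family against 1.8% of all genes. Kcnc1 differed by 2.29 (2.01 within pNdrg4 and 2.56 within pSynapsin), with means of 10.93 ± 0.38 (SD, n = 4 cells) at P8 and 8.68 ± 1.22 (SD, n = 9 cells) at P5. P5 signals ran from 27.4 through a median of 263 to 2015, so P5 C6 overlapped with P8. The Kcnc1 difference depended on the probe set, as it was 0.27 with the median of its probe sets in each cell. It was 1.86 with the highest probe set in each cell and 1.80 with quantile normalization, both under the limit. Kcnab2 differed by 2.06, with 2 of 4 P8 cells detected (3780 and 9136, the others 320 and 550) and 0 of 9 P5 cells, whose highest was 951. Its groups overlapped, and its difference was 1.05 without P8 B4 and 1.17 without P8 A1. The Kcnab2 difference depended on the probe set too, and its cell counts are for the probe set used. The other Kcnab2 probe set was detected in P5 D5 alone (1629), a cultured P5 cell. The Kcnab2 difference was 1.87 with the highest and 1.40 with the median of its probe sets in each cell, both under the limit.

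In the lower direction 0 genes were past the limit, against 0.786% of all genes. At 1 unit 9 genes were higher at P8 (11.7% of the family against 9.27%) and 1 lower (1.30% against 6.0%). Besides Kcnc1 and Kcnab2 the higher ones were Kcnk15 (1.76), Kcnh2 (1.44), Kcnmb4 (1.31), Kcnk1 (1.20), Kcnc2 (1.14), Kcns2 (1.08) and Kcnn2 (1.06), and the lower one was Kcna5 (-1.25). By signs, 26 (33.8%) were higher, 15 (19.5%) lower and 36 equal at the floor, against 29.8% and 33.3% of all genes, and both medians were 0, set by genes at the floor. Over genes detected in at least 2 cells 17 of 21 were higher and 4 lower, with a median of 0.83 against 0.05 for all genes, a description with the same limit as by class. Within pNdrg4 Kcnc1 and Kcnn2 (2.46) were past the limit and higher (2.60% against 5.04%), and Kcna5 (-2.51) was lower (1.30% against 2.74%). Within pSynapsin Kcnk1 (3.30), Kcnab2 (2.66), Kcnc1, Kcna4 (2.24) and Kcns2 (2.17) were higher (6.49% against 4.71%) and 0 were lower (3.09% of all genes). Kcnc1 was thus past the limit within both reporters. Cells with Kcnc1 detected had a median of 6 rod markers (0 to 8), the others 1 (0 to 7), and 6 of 10 rod markers were past the limit by age. Their part in the age values was not tested.

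Partners of potassium channels that carry no Kcn symbol varied widely. Of 20 such genes 19 were measured and 13 (68.4%) detected, against 55.9% of all genes, and 5 (26.3%) were detected in at least 13 cells, against 11.9%. The list's median was 1 cell, and 6 genes were detected in none. These 5 were Dlg2 (19 cells), a scaffold that binds Kv1 channels, Ank3 (18) and Ank2 (15), which anchor membrane proteins, Adam22 (15), and Cntnap2 (14), the adhesion protein that clusters Kv1 channels at axons. By class Cntnap2 (-2.46) and Dpp6 (-2.28), a Kv4 partner, were past the limit and lower in Gad1-only cells, 10.5% of the list against 1.65% of all genes. Cntnap2 was also higher in cultured cells (2.81; 5.26% against 3.47%). By reporter Ank2 (2.28), Dpp6 (2.19) and Adam23 (2.11) were higher in pSynapsin cells (15.8% against 2.84%), though Adam23 was detected in only 2 of 26 cells. By age Ank3 was higher (2.72, 5.26% of the list against 1.8% of all genes). Of the sodium-potassium pump, which builds the potassium gradient, the beta subunits Atp1b2, Atp1b1 and Atp1b3 were measured and detected in 23, 16 and 10 cells. Atp1b3 was lower in pSynapsin cells (-2.39). Slc12a5, which exports chloride with potassium, was detected in 22 cells and was higher in cultured cells (2.09). Slc12a2, which imports chloride, was detected in 6 cells, 5 of them Slc6a9-only (class difference -2.18). The classes were uneven across the culture, reporter and age groups, and rod markers differed too. The part of both in the values of these genes was not tested.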

How the data were processed

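Signals of 26 arrays, 1 cell each, were used as deposited. The authors made these linear intensities with the MAS5 software, per the submitters' processing notes, and its version is not given here. Their 2% trimmed mean of 500 on each array was found in the values. Of 45101 probe sets, 34945 belonged to 1 gene in GEO's platform annotation (34741 matched a current symbol), 932 to several and 9224 to none. Per gene, the probe set used was that of highest mean log2(max(signal, 200)) over all cells, which gave 18193 genes, and 38 of the 77 potassium channel genes had 1 probe set. With 26 arrays and no counts, the number of cells limits precision. PCR over 35 cycles can distort levels and lose rare transcripts, so a signal below 1000 is not absence.

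Groups follow the labels' age, reporter and culture, and classes the detection of Gad1 and Slc6a9. Members of 4 or more cells were named with values, those of 1 to 3 cells with their signals, and undetected ones where they define a subfamily or another cell type; in comparisons all members past 2 log2 units were named. Members, lists and comparisons were chosen with earlier results of these data known. Probe sets named by several genes were left out. Python 3.11.15, pandas 2.3.3, numpy 2.4.6, matplotlib 3.10.9 and scipy 1.17.1 were used, and the procedure was tested on simulated data. Alternatives were other thresholds, floors, probe set rules and scalings, group medians, a filter, comparisons within groups, and leaving out each cell.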

Additional observations from a re-analysis of the deposited data

Results flagged for a closer look

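Groups of 4 to 10 cells were checked for a cell far from the rest. The values were the count of potassium channel genes per cell and the signals of Kcna5, Kcnab2, Kcnab3 and Kcnc1. These genes were past the limit by class, culture, reporter or age. Of 15 checks 2 had such a cell, both in the P5 pNdrg4 cells without stated culture. Kcnab3 stood at a log2 signal of 9.14 in P5 A1, and Kcnc1 at 9.70 in P5 B3. Both signals were below the detection threshold, and chance marks about 1 group in 20.

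For 11 potassium channel genes a probe set other than the one used was detected in cells where the one used was not, 16 calls in all. These were 3 cells for Kcnma1, 2 each for Kcna2, Kcnc1 and Kcnq1ot1, and 1 each for Kcna1, Kcna4, Kcnab2, Kcnh1, Kcnj9, Kcnk3 and Kcnt1. Kcnk3 is thereby the 1 gene not detected in the report that another probe set detected.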

How the results depend on the processing

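Of 80 summary values under alternatives other than leaving out single cells, 63 stayed close to the reported value and 17 moved. No difference reported as past the limit reversed its direction. Differences named at 1 unit were not part of this check. Among them, that of Kcnab3 by class was positive within P5 cells without stated culture (0.25) and within cultured P5 pNdrg4 cells (1.25). Part of the 63 could hardly move. A median per cell counted as close within 1 SD over cells (3.18), and the filter on genes detected in at least 2 cells dropped none past the limit. A count also stayed close where a different gene was past the limit. The number of genes detected ran from 24 to 35 under these alternatives and the median per cell from 2 to 4.5. Without each cell they were 27 to 29 and 3. Keeping only protein-coding genes, an alternative chosen after seeing the data, gave 28 genes and a median of 2.5. By class, genes past 4-fold and higher numbered 0 with a floor of 500, 2 within P5 cells without stated culture, 9 within cultured P5 pNdrg4 cells (where P5 C6 is the only Gad1-only cell), and 0 to 1 without each cell. Those lower numbered 2 with a floor of 50, 1 with medians, and 2 and 1 within those groups. By culture, those higher numbered 2 with a floor of 50 or the highest probe set (adding Kcnma1) and 1 to 2 without each cell; those lower numbered 1 with medians (Kcnq1ot1). By reporter, those lower numbered 2 with a floor of 50, 0 with a floor of 500 and 0 to 1 without each cell; with medians the count of 1 held Kcnab3 and not Kcna5. By age, those higher numbered 0 with a floor of 500, the highest or the median probe set or quantile normalization, 4 with medians, and 1 to 5 without each cell (5 without P8 A2 or P8 B4; 1 without P5 D3, P5 D6, P5 E1 or P5 E4). The cause was not tested. No paired analysis was possible because the labels' cell names pair no cells across groups. Signals near the floor of 200 limit all differences.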
